A study of Mus musculus with 8 samples.

Results

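The mitochondrial respiratory chain subunits were read here as 89 genes of the 19935 measured, in livers of male C57Bl/6 mice with or without mutations in the corepressors NCOR and SMRT. They were chosen by array symbol alone: every gene whose symbol begins with Nduf, Uqcr, Atp5, Cox4, Cox5, Cox6, Cox7 or Cox8, together with Sdha, Sdhb, Sdhc and Sdhd. By these prefixes 43 genes were assigned to complex I, 4 to complex II, 8 to complex III, 17 to complex IV and 17 to complex V. The rule matched 93 symbols. The other 4, Cox7c, Ndufb4, Ndufb4b and the pseudogene Ndufs5-ps, were read only by probe sets that name more than 1 gene and entered no test. The prefixes also take in 7 complex I assembly factors, the Ndufaf genes, and 8 isoforms known chiefly from muscle, lung, testis or hypoxic cells, which left 72 structural subunits of the liver chain after Ndufa4 and Cox7a2l were also set apart.

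One group of 4 samples, labelled NS-DADm, carried a mutated deacetylase-activating domain (DAD) in both NCOR and SMRT. This is the stretch through which the corepressors bind histone deacetylase 3 and switch on its activity. The other group held 4 wild-type (WT) samples. All mice were 10 to 12 weeks old and on normal chow, with lights on for 12 h and off for 12 h, and zeitgeber time 10, when livers were collected, falls late in the light period. RNA was hybridised to Affymetrix arrays, 1 array per sample. The labels do not say whether each array came from a separate mouse, so errors and p-values measure how far these samples differ, and that spread may be technical. The corepressor transcripts were not analysed here, and the genotypes rest on the labels, whose growth text names WT for every sample.

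The respiratory chain passes electrons from NADH (complex I) and succinate (complex II) through coenzyme Q, complex III and cytochrome c to oxygen at complex IV. Complexes I, III and IV pump protons across the inner membrane, and complex V, the ATP synthase, lets them return to make ATP. Most subunits are encoded in the nucleus and imported, a few in mitochondrial DNA. In liver, a tissue rich in mitochondria, the chain powers gluconeogenesis and urea synthesis. The nuclear genes share control by the factor NRF1, by ETS-family factors such as GABP, by YY1 and by the ERR receptors, with PGC-1 proteins as coactivators. PGC-1beta and PGC-1alpha are encoded by Ppargc1b and Ppargc1a.

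Letters of these factors' motifs were counted in promoter sequence. RefSeq promoter windows (GRCm38.p6, 250 bases before to 50 after a gene's start) were matched for 73 of the 89 genes and searched on both strands, counting overlapping matches. The NRF1 letters GCGCA and GCGC, with any 1 base between them, lay in a window of 18 of the 73 genes, 24.7%, against 7.79% of the other 15487 genes on the array with a window and 5.19% of all 27025 genes with one. The ETS letters CCGGAAG were also found in 18 genes, 24.7%, against 13.6% of the other array genes and 9.93% of all genes. One or both were present in 32 of 73, or 43.8%, against 19.7% of the other array genes. The YY1 letters AAGATGGCG were in 7 genes, 9.59% against 2.26%, and the ERR letters TCAAGGTCA in 2, Sdhd and Atp5g3, 2.74% against 0.336%. The letters GGGCGG of Sp1, a factor of many promoters, were in 33 genes, 45.2%, below the 53.0% of the other array genes. As shares of all 32851 windows, the 5 motifs were in 4.60%, 8.86%, 1.40%, 0.423% and 35.7%, in the order given. By complex, NRF1 or ETS letters were in 13 of 38 matched genes of complex I, 3 of 3 of complex II, 3 of 5 of complex III, 3 of 12 of complex IV and 10 of 15 of complex V. These shares describe letters in windows, were not tested, and say nothing of factor binding.

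Examples of promoters with such letters follow, each as the 170 bases before the gene's start, written 5′ to 3′ on the gene's own strand with NRF1 and ETS matches in capitals. Atp5k and Ndufa11 are shown because their array values come up below, and Cox6a1 and Sdhd because both motifs lie within these bases. The ETS match of Atp5k lies after its start and is not shown.
Atp5k (chr5:108434400-108434569, minus strand): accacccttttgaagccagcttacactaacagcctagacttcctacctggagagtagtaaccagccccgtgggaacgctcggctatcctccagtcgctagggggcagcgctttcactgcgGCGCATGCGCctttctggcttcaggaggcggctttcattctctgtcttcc
Cox6a1 (chr5:115348959-115349128, minus strand): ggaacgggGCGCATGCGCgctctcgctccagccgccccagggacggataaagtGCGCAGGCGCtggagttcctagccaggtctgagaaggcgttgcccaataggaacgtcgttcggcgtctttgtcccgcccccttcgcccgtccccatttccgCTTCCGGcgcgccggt
Ndufa11 (chr17:56717592-56717761, plus strand): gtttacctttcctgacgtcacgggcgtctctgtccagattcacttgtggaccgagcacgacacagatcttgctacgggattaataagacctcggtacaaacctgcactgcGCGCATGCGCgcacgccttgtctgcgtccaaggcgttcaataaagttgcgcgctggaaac
Sdhd (chr9:50603850-50604019, minus strand): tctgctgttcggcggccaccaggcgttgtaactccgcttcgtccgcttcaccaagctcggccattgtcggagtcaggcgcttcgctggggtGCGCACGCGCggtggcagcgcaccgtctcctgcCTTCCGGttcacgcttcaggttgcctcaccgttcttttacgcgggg

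The comparison asked whether the genes of the respiratory chain differ between NS-DADm and WT livers, complex by complex, and how large a shift the arrays exclude. None of the 89 genes passed the test (limma, adjusted p under 0.05 over all genes), against 0.271% of all genes, of which 0.161% were higher and 0.11% lower. At an adjusted p under 0.1 there was again none, against 0.547%, and the lowest adjusted p among them was 0.458. At an unadjusted p under 0.05 there were 5 of 89, against 9.33% of all genes. Of these, 4 were lower, against 5.6% of all genes, and 1 was higher, against 3.72%. All 5 were among the 82 chain genes whose mean level reached the median of all genes. Of all 9968 genes at that level, 1496 had an unadjusted p under 0.05. With NS-DADm replicate 1 left out that count of 5 became 0, against 6.53% of all genes, with replicate 2 left out 2, against 7.66%, and with replicate 3 left out 1, against 7.39%. With NS-DADm replicate 4 left out it was 10, against 11.7% of all genes, so counts over all genes moved in the same direction. Leaving out WT replicate 2 gave 1, against 8.09%, and WT replicate 3 gave 3, against 7.69%. No gene of the chain passed the adjusted threshold in any of these settings, the lowest adjusted p being 0.130, with NS-DADm replicate 4 left out. Values below are log2 intensities. Intensities of different probe sets have no common scale, so they compare arrays and not genes.

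Differences, given throughout as NS-DADm minus WT on the log2 scale, ran from -0.21 for Atp5k to 0.20 for Ndufaf1, with a median of -0.022 against -0.011 over all genes. They were below 0 for 54 genes and above 0 for 35, against 55.7% below 0 over all genes and 53.4% among the genes whose level reached the median. Every one of the 89 95% confidence intervals lay within 0.5 of 0, which is 1.41-fold in either direction, as did 95.6% of the intervals of all genes and 92.9% of those of genes at or above the median level. At a bound of 1.5-fold the shares were 89 of 89 and 97.2% of all genes. Intervals within 0.3 of 0, or 1.23-fold, were reached by 76 of 89, against 80.0% of all genes and 70.2% of genes at or above the median level. The 13 with a wider reach were Ndufa11, Ndufb10, Ndufs1, Ndufs4, Ndufaf1, Ndufaf4, Ndufaf7, Uqcrb, Uqcr10, Cox7a1, Cox7a2l, Atp5e and Atp5k. The median SE of a difference was 0.061 for these genes and 0.070 for all genes. For the median gene of the chain the outer end of the interval was at 0.19, and the widest was that of Atp5k, -0.48 to 0.050. Atp5k alone crossed 0.5 in other settings. Its lower end was at -0.52 with array weights and -0.51 with a replicate block. With single arrays left out it was at -0.51 and -0.53 when NS-DADm replicate 2 or 4 was dropped, and at -0.53 and -0.55 when WT replicate 2 or 4 was. The other 88 intervals stayed within 0.5.

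**Figure D1:**
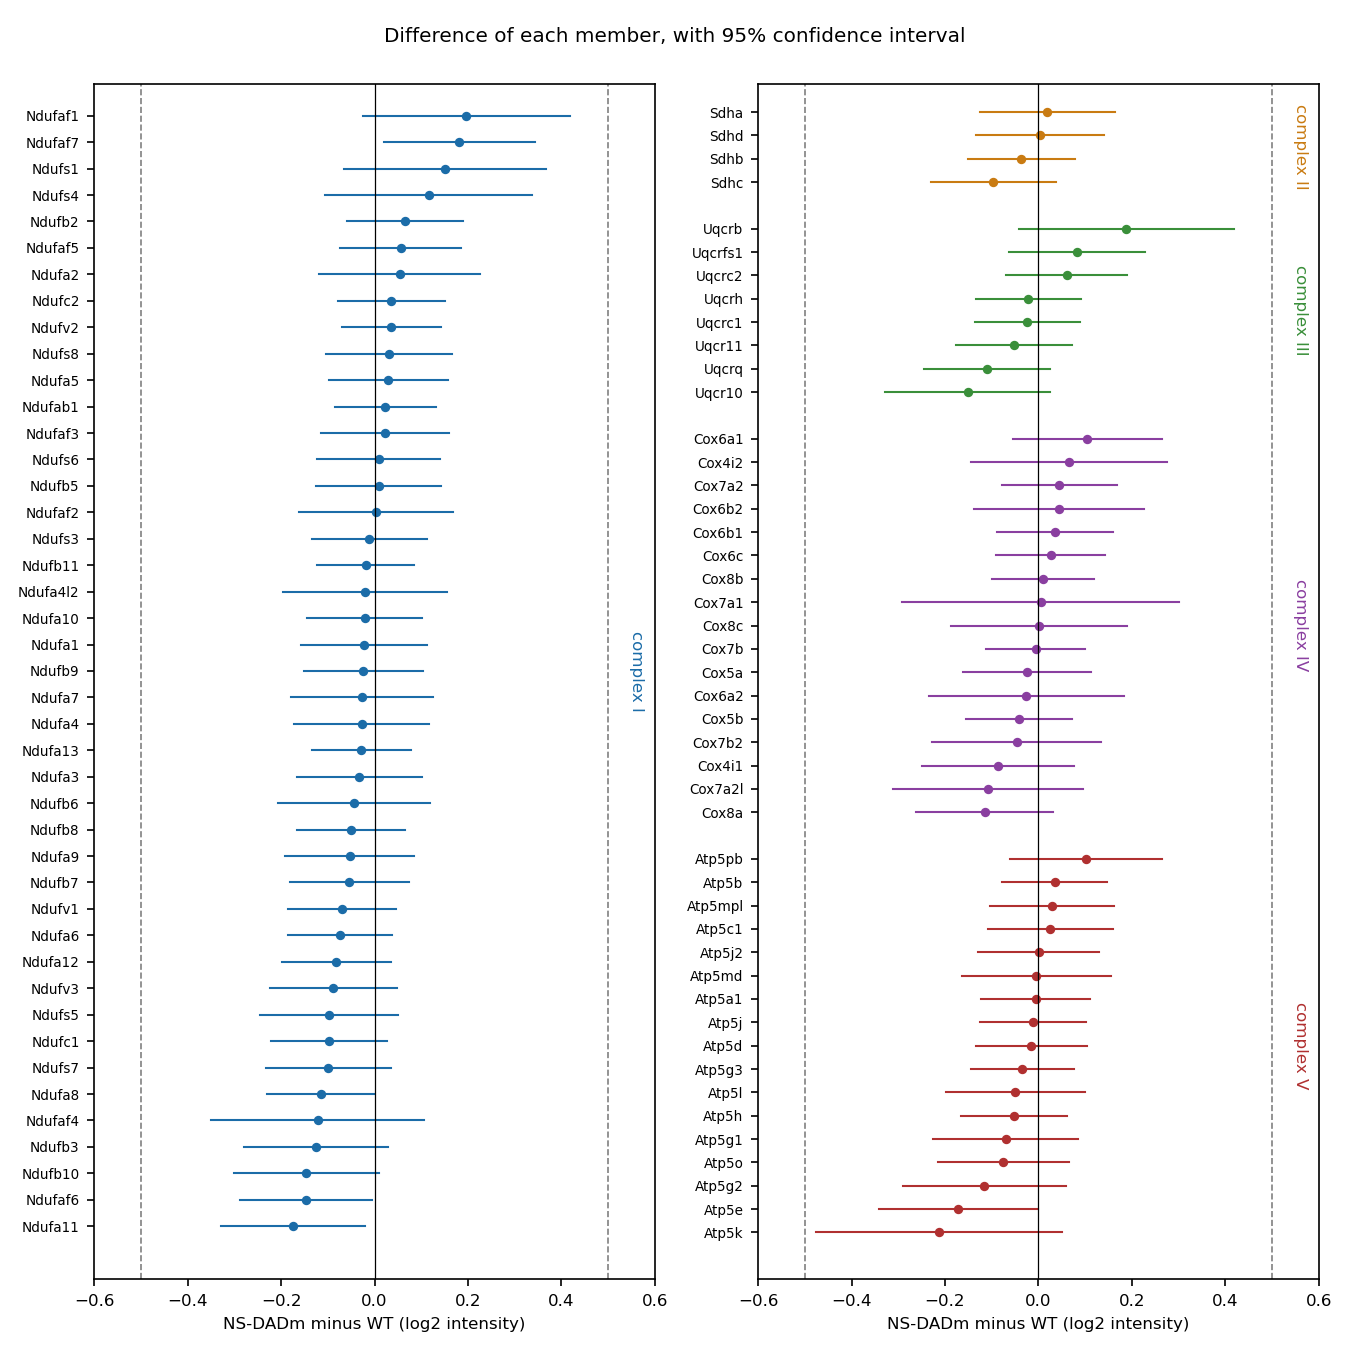
Difference between NS-DADm and WT livers (NS-DADm minus WT, log2 intensity) for each of the 89 genes, with its 95% confidence interval from limma, sorted within complex I (left) and complexes II to V (right). All 89 intervals lie between the dashed lines at -0.5 and 0.5, and Atp5k, at -0.21, reaches farthest.

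Averaged over the genes of a complex, the groups overlapped in all 5 complexes. Complex I stood at 10.36, 10.34, 10.40 and 10.35 in NS-DADm replicates 1 to 4 and at 10.35, 10.44, 10.34 and 10.40 in WT replicates 1 to 4. The difference of its means was -0.020 (SE 0.026, n = 4 arrays per group), with a 95% interval of -0.083 to 0.044 from the pooled SD over arrays. This excludes an average fall in intensity of more than 5.62% and an average rise of more than 3.07% over its 43 genes. Without the assembly factors, Ndufa4 and Ndufa4l2, the 34 structural subunits of complex I were at -0.029 (-0.084 to 0.026), with limits of 5.67% down and 1.79% up. Complex II was at -0.028 (-0.076 to 0.020), which excludes a fall beyond 5.12% and a rise beyond 1.39%. For complex III the difference was -0.0035 (-0.066 to 0.059), with limits of 4.50% down and 4.19% up. Complex IV gave -0.0069 (-0.063 to 0.049), limits of 4.25% down and 3.44% up, and complex V -0.037 (-0.091 to 0.017), limits of 6.10% down and 1.19% up. Over all 89 genes the mean was 10.72 ± 0.021 in NS-DADm and 10.74 ± 0.024 in WT livers (SD, n = 4 each), a difference of -0.020 with an interval of -0.058 to 0.019. For the 72 structural subunits of the chain the difference was -0.025 (-0.070 to 0.020), with limits of 4.77% down and 1.37% up. The deposited values had been normalized between arrays, which removes any shift common to most genes, so these limits hold relative to the other transcripts of the liver and not per cell. They are limits on array intensity, and whether intensity understates a change of RNA in these genes was not tested. Opposite differences of single genes cancel in such a mean, and in complex IV the median gene, at 0.0021, and the mean had opposite signs.

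**Figure D2:**
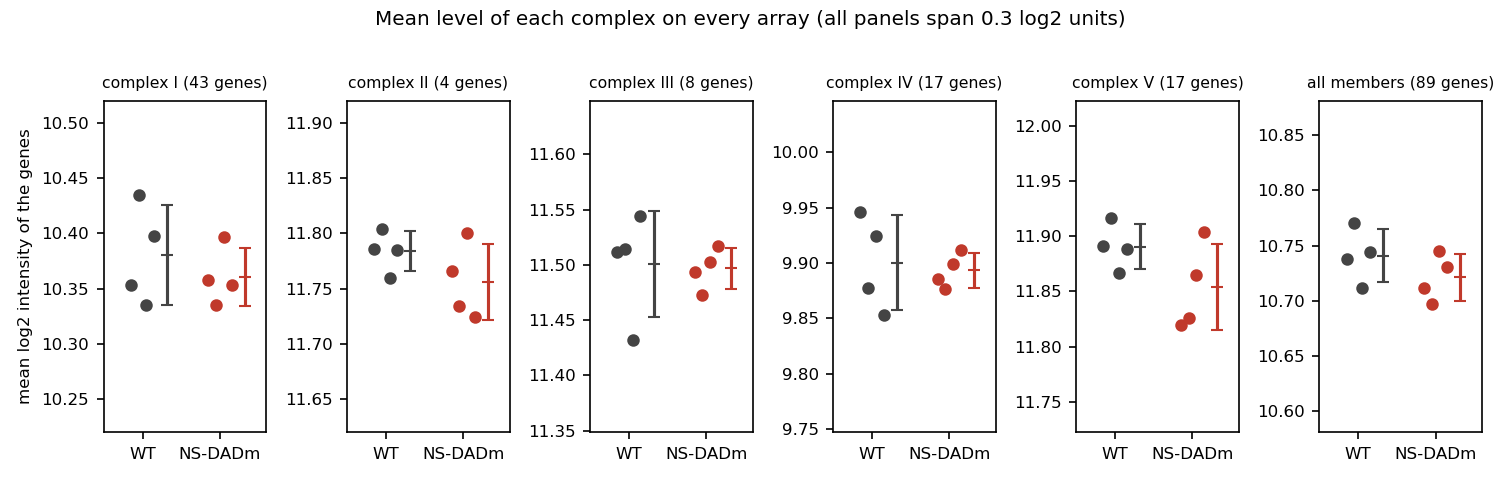
Mean log2 intensity over the genes of each complex on every array, for WT (grey) and NS-DADm (red), with group means and SD bars (n = 4 arrays each) beside the points and 0.3 log2 units shown in each panel. The groups overlap in every panel, and the difference of means is largest in complex V, at -0.037.

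Complex I takes electrons from NADH in a matrix arm of conserved core subunits wrapped in accessory proteins. Of 6 core subunits measured, 3 had values below 0 and 3 above 0. Ndufv1, which carries the NADH site, was at -0.071 (-0.19 to 0.045), and Ndufs7, which holds the last iron-sulfur cluster before coenzyme Q, was at -0.099 (adjusted p = 0.697). Ndufs1, the large iron-sulfur subunit, stood at 10.73, 10.50, 10.94 and 10.54 in NS-DADm and at 10.53, 10.55, 10.38 and 10.65 in WT samples. NS-DADm replicates 1 and 3 lay above all WT samples, the other 2 within them, and the difference was 0.15 (-0.065 to 0.37, adjusted p = 0.723).

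Of the 28 accessory subunits of complex I, 20 were below 0 and 8 above, with a median of -0.030. Ndufa11, a membrane-arm subunit at the junction with complex III, was at 10.83, 10.85, 10.75 and 11.00 in NS-DADm and at 10.95, 11.16, 11.02 and 10.99 in WT livers. NS-DADm replicates 1 to 3 lay below all WT samples and replicate 4 among them. Its difference of -0.17 (-0.33 to -0.020) had an adjusted p of 0.458. Its other probe set stood at 10.42, 10.45, 10.47 and 10.48 in NS-DADm and at 10.54, 10.64, 10.56 and 10.53 in WT livers. The groups did not overlap on that set, which entered no test by itself, and the difference was -0.11. Ndufa8 is an accessory subunit with twin cysteine motifs. On the probe sets used, it was the 1 gene of the 89 whose groups did not overlap, against 5.63% of all genes. Among genes at or above the median level, 854 of 9968 did not overlap. Ndufa8 was lower, as were 3.83% of all genes, and 0 of 89 were higher without overlap, against 1.8%. Its values were 11.19, 11.25, 11.15 and 11.20 in NS-DADm and at 11.28, 11.37, 11.34 and 11.25 in WT livers, the nearest pair being NS-DADm replicate 2 and WT replicate 4. The difference was -0.12 (-0.23 to -0.00024, adjusted p = 0.534). The accessory subunits Ndufc2 and Ndufb9 were at 0.036 (-0.077 to 0.15) and -0.024 (-0.15 to 0.10). Ndufa4, named for complex I but now known to sit in cytochrome c oxidase, was at -0.027 (-0.17 to 0.12).

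The assembly factors build complex I and do not stay in it. Of 7, 5 were above 0 and 2 below. Ndufaf1, a chaperone of membrane-arm intermediates, had the largest positive difference of the 89 genes over all arrays. It stood at 10.19, 9.98, 10.36 and 9.97 in NS-DADm and at 9.90, 10.03, 9.73 and 10.04 in WT livers, a difference of 0.20 (-0.026 to 0.42, adjusted p = 0.601), with overlapping groups. The difference was 0.12 without NS-DADm replicate 3 and 0.13 without WT replicate 3, and in both settings Ndufaf7, at 0.15 and 0.13, was above it. Ndufaf7, a methyltransferase that modifies a core subunit, was at 8.14, 8.03, 8.23 and 8.10 against 7.89, 7.98, 7.79 and 8.09, a difference of 0.18 (0.020 to 0.34, adjusted p = 0.460). WT replicate 4 lay among the NS-DADm samples. Ndufaf6, also needed early in assembly, was at 8.43, 8.57, 8.70 and 8.60 in NS-DADm and 8.67, 8.72, 8.70 and 8.78 in WT livers, a difference of -0.15 (-0.29 to -0.0049, adjusted p = 0.512).

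Complex II, succinate dehydrogenase, is also an enzyme of the TCA cycle, and all of its subunits are nuclear. Sdha, the flavoprotein that oxidises succinate, was at 12.44, 12.39, 12.50 and 12.24 in NS-DADm and at 12.40, 12.39, 12.30 and 12.41 in WT livers. Its difference was 0.019 (-0.13 to 0.16). The iron-sulfur subunit Sdhb was at -0.037 (-0.15 to 0.078). Of the membrane anchors, Sdhc was at 11.39, 11.50, 11.41 and 11.57 in NS-DADm and at 11.63, 11.57, 11.59 and 11.48 in WT livers, a difference of -0.097 (-0.23 to 0.037, adjusted p = 0.709). Sdhd, whose promoter is printed above, was at 0.0027 (-0.13 to 0.14). The samples of both groups overlapped for Sdha and Sdhc.

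Complex III hands electrons from coenzyme Q to cytochrome c. Uqcrb, which binds near the quinone site, was at 12.95, 12.78, 13.09 and 12.62 in NS-DADm and at 12.58, 12.61, 12.62 and 12.88 in WT livers. The difference was 0.19 (-0.042 to 0.42, adjusted p = 0.642), and its 3 probe sets gave 0.19 each. Without NS-DADm replicate 3 it was 0.11. NS-DADm replicate 4 lay with most WT samples, and WT replicate 4 lay among the NS-DADm samples. Uqcr10, a small subunit, went the other way at 10.19, 10.27, 10.08 and 10.45 in NS-DADm and 10.48, 10.44, 10.33 and 10.34 in WT livers, a difference of -0.15 (-0.33 to 0.024, adjusted p = 0.612). Uqcrq, which binds cytochrome b, was at -0.11 (-0.24 to 0.025). The core proteins Uqcrc1 and Uqcrc2 were at -0.024 and 0.060, and the Rieske iron-sulfur protein Uqcrfs1 was at 0.082 (-0.063 to 0.23, adjusted p = 0.815).

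Complex IV, cytochrome c oxidase, reduces oxygen, and several of its nuclear subunits exist as isoforms made in different tissues. Cox8a, the isoform found in liver, was at 12.11, 12.24, 12.19 and 12.36 in NS-DADm and at 12.42, 12.30, 12.39 and 12.25 in WT livers, a difference of -0.12 (-0.26 to 0.032, adjusted p = 0.666). Cox6a1 was at 12.05, 11.85, 12.04 and 11.87 against 11.86, 11.88, 11.70 and 11.94, a difference of 0.10 (-0.055 to 0.26). In both genes the groups overlapped. Cox4i1, a regulatory subunit in its widespread isoform, was at -0.087 (-0.25 to 0.077), Cox6b1 at 0.035, Cox7a2 at 0.045 and Cox7b at -0.0056. Cox6c, a small membrane subunit, was at 0.026 (-0.090 to 0.14). Cox7a2l, which joins complexes III and IV in supercomplexes, was at -0.11 (-0.31 to 0.095, adjusted p = 0.832).

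The partner isoforms of other tissues gave differences near 0. The muscle forms Cox6a2, Cox7a1 and Cox8b were at -0.026, 0.0049 and 0.0094, and the lung form Cox4i2 was at 0.065. The interval of Cox7a1 was -0.29 to 0.30. It stood at 7.45, 7.63, 7.73 and 8.14 in NS-DADm, on both sides of the WT range of 7.53 to 7.91. The testis forms Cox6b2, Cox7b2 and Cox8c were at 0.045, -0.047 and 0.0021. Ndufa4l2, which hypoxia induces in place of Ndufa4, was at -0.021. Adjusted p lay at 0.941 or above for all 8. Of these, Cox4i2, Cox6b2, Cox7b2, Cox8b, Cox8c and Ndufa4l2, and the assembly factor Ndufaf5, were the 7 genes of the 89 with a mean below the median level of all genes, 7.59. No detection calls were used, so a value there may be mostly background and a real change would appear smaller. None of 5 skeletal muscle markers passed the test.

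Complex V has a catalytic head of alpha and beta subunits turned by a central stalk and a ring of c subunits. The head subunits Atp5b and Atp5a1 were at 0.035 (-0.078 to 0.15) and -0.0061 (-0.12 to 0.11). Atp5e, the epsilon subunit of the stalk, was at 9.50, 9.52, 9.40 and 9.73 in NS-DADm and at 9.74, 9.81, 9.67 and 9.61 in WT livers, a difference of -0.17 (-0.34 to -0.0017, adjusted p = 0.530). NS-DADm replicates 1 to 3 lay below all WT samples, and replicate 4 lay among them. The delta subunit Atp5d was at -0.015. Atp5g1, Atp5g2 and Atp5g3 encode the same mature c subunit, and they were at -0.070, -0.12 and -0.035, with adjusted p from 0.755 to 0.939.

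Atp5k, a membrane subunit that helps the synthase form dimers, had the largest difference of all 89 genes in absolute size. It was at 8.89, 9.09, 8.98 and 9.47 in NS-DADm and at 9.46, 9.28, 9.40 and 9.15 in WT livers. NS-DADm replicates 1 to 3 lay below all 4 WT samples and replicate 4 above them, and the difference of -0.21 (-0.48 to 0.050) had an adjusted p of 0.647. The size turned on single arrays: it was -0.14 without NS-DADm replicate 1 and -0.33 (-0.53 to -0.14) without NS-DADm replicate 4. With array weights it was -0.29 (-0.52 to -0.058). The last 2 intervals exclude 0, and neither setting brought a gene of the chain past the adjusted threshold. Atp5pb, of the outer stalk, was at 11.83, 11.70, 11.99 and 11.76 against 11.65, 11.76, 11.65 and 11.83, a difference of 0.10 (-0.062 to 0.26).

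The genes that were read by more than 1 probe set were compared over their sets, which need not be independent of each other. Of 17 such genes, 15 had differences of 1 sign on all of their probe sets. The 2 exceptions were Atp5md, at 0.037, 0.039 and -0.0041, and Cox7a2l, at 0.00070 and -0.11. Atp5l had 6 probe sets, all between -0.037 and -0.062. Small abundant mitochondrial proteins have many processed pseudogenes, so probes may read near-identical copies, and the share of each copy is uncertain. The probe sets shared by Cox7c and a predicted gene gave 0.019, 0.017 and 0.011, and those shared by Ndufb4 and Ndufb4b gave 0.0020 and 0.0046. The set shared by the accessory subunit gene Ndufs5 and its pseudogene was at 8.92, 8.86, 9.07 and 8.83 in NS-DADm and 9.05, 9.24, 9.07 and 9.13 in WT livers, a difference of -0.20, against -0.098 for the set that names Ndufs5 alone.

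Variation over the 8 arrays was described without use of the group labels, so differences between the groups are part of it. A principal component analysis of the 82 genes at or above the median level, each centred on its own mean, put 49.2% of their variance on a first component and 16.3% on the second. Over all 9968 genes at that level the first component of the same analysis held 36.0%, and this contrast was not tested. The median correlation between pairs of the 82 genes was 0.13 over the 8 arrays, which all pairs share. Loadings were positive for 46 genes and negative for 36. The 10 highest were those of Uqcrb, Ndufaf1, Ndufs1, Ndufs4, Ndufaf7, Atp5pb, Cox6a1, Uqcrc2, Sdha and Ndufb6. The 10 lowest were those of Atp5k, Uqcr10, Cox7a2l, Atp5e, Atp5g2, Cox8a, Ndufa11, Cox4i1, Ndufb10 and Sdhc. Both sets held genes of all 5 complexes, and whether the direction goes with the complex was not tested.

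The mean of the 10 highest minus that of the 10 lowest was 1.05, 0.80, 1.14 and 0.59 in NS-DADm and 0.52, 0.66, 0.56 and 0.85 in WT replicates 1 to 4. NS-DADm replicates 1 and 3 were highest, WT replicate 4 came next, and NS-DADm replicate 4 lay among the other WT samples, so the groups overlapped. These genes were picked by these same values, which are a description with no test. Beside them, the median of all genes was lowest in WT replicate 4 (7.56) and highest in WT replicate 1 (7.64), with 7.58, 7.59, 7.59 and 7.60 in the NS-DADm replicates. The part of array quality in this pattern was not tested.

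**Figure D3:**
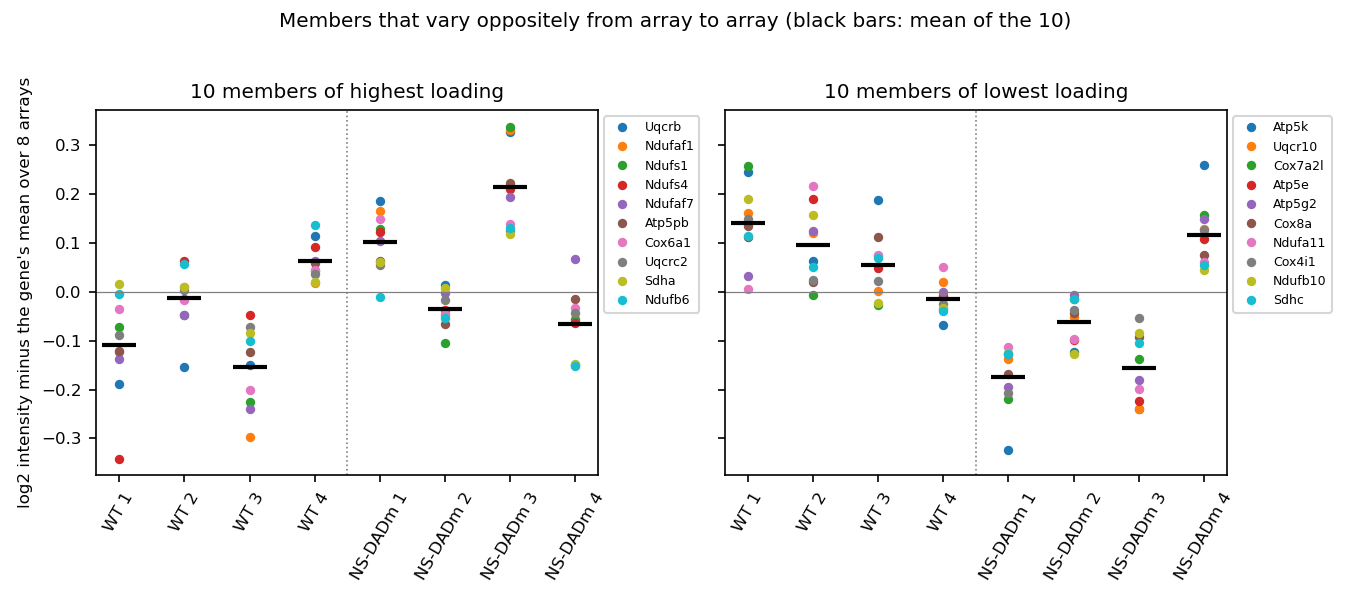
Log2 intensity minus the gene's mean over 8 arrays for the 10 genes with the highest loading on the first component (left) and the 10 with the lowest (right), on each WT and NS-DADm array; black bars are means of the 10. NS-DADm replicates 1 and 3 are high on the left and low on the right, and NS-DADm replicate 4 lies on the side of WT replicates 1 to 3 in both panels.

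Other genes of the same pathway gave no call either. None of 11 electron carriers and coenzyme Q-linked dehydrogenases, 12 genes of coenzyme Q synthesis, 18 of the TCA cycle and pyruvate dehydrogenase, 15 carriers, porins and uncoupling proteins, or 37 assembly factors outside the prefixes passed the test over all genes. Their median differences were -0.010 (with a mean of 0.026), 0.044, 0.073, 0.0022 and 0.026, in that order. At an unadjusted p under 0.05, which 9.33% of all genes reached, they had 1, 0, 3, 2 and 8 genes. All were higher but 1 of the 8 assembly factors, against 3.72% of all genes higher and 5.6% lower. Cox19 and Coa7, both cytochrome c oxidase assembly factors, were at 0.29 (0.14 to 0.45, adjusted p = 0.157) and 0.28 (0.091 to 0.47, adjusted p = 0.299). Suclg2, a succinyl-CoA ligase subunit, was at 0.29 (adjusted p = 0.351) and Pdha1, of pyruvate dehydrogenase, at 0.21. Slc25a10, the dicarboxylate carrier that exchanges succinate and malate, was at 0.24 (adjusted p = 0.252) and the pyruvate carrier gene Mpc1 at 0.16. Sqor and Gpd2, which feed electrons to coenzyme Q, were at 0.14 and 0.17, and Coq3 and Coq10a of the coenzyme Q list at 0.20 and -0.19.

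The regulators of mitochondrial gene expression were a list of 19 measured genes, with no call and 4 lower at an unadjusted p under 0.05, against 5.6% of all genes. Their median was 0.032 and the mean of their levels differed by -0.026, which are opposite in sign. Ppargc1b stood at 8.30, 8.55, 8.86 and 9.07 in NS-DADm and at 9.11, 9.06, 9.16 and 9.13 in WT livers. NS-DADm replicates 1 to 3 lay below all WT samples and replicate 4 among them, a difference of -0.42 (-0.72 to -0.12, adjusted p = 0.341). Ppargc1a was at 8.31, 8.77, 9.48 and 10.02 in NS-DADm and at 9.31, 9.13, 9.55 and 9.56 in WT livers, a difference of -0.24 (-0.90 to 0.42, adjusted p = 0.922). Its NS-DADm samples spread on both sides of the WT range, with an SD of 0.76 against 0.21. On the same arrays the mean of all chain genes spanned 10.70 to 10.75 in NS-DADm and 10.71 to 10.77 in WT livers.

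Lists of ribosomal protein and proteasome genes, taken by symbol, were set beside the chain for the size of its differences. The 77 mitochondrial ribosomal proteins had a median of 0.034 and a largest absolute difference of 0.23, in Mrps36 (-0.23), with Mrpl1 at 0.22. The 63 cytosolic ribosomal proteins had a median of 0.020, with Rps4l at -0.25 and Rpl36a at 0.22. The 40 proteasome genes had one of 0.081, with Psmb10 at 0.31 (adjusted p = 0.187) and Psma1 at 0.22. Differences were above 0 for 49 of 77, 39 of 63 and 35 of 40 genes of the 3 lists, in that order. The mean of the proteasome genes differed by 0.079 (0.0010 to 0.16), an interval that excludes 0. No gene of the 3 lists passed the test, and 4, 6 and 6 reached an unadjusted p under 0.05, against 9.33% of all genes. The respiratory chain was the 1 group of these 4 whose median lay below 0, at -0.022. That contrast was not tested. The medians of all genes, at -0.011, and of the electron carriers and coenzyme Q-linked dehydrogenases, at -0.010, also lay below 0.

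**Figure D4:**
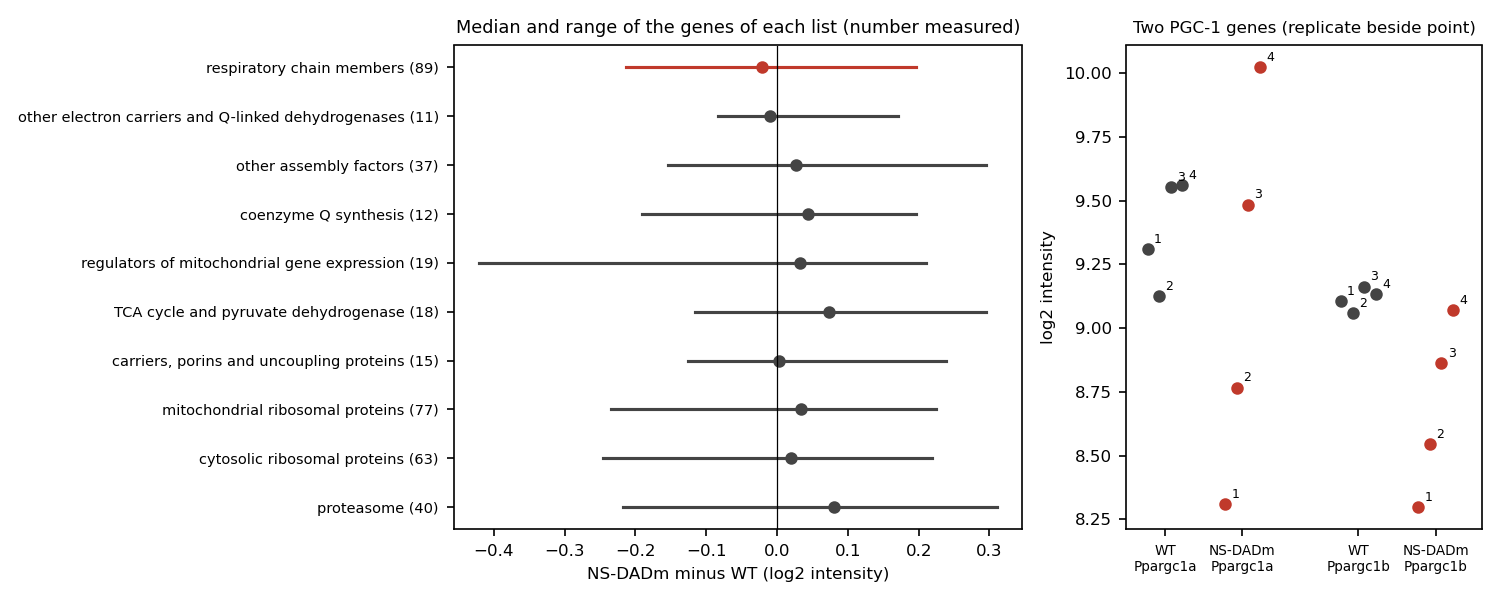
Left, median (point) and lowest to highest (line) log2 difference, NS-DADm minus WT, of the genes of each list, with the respiratory chain in red; right, log2 intensity of Ppargc1a and Ppargc1b in each WT (grey) and NS-DADm (red) sample. All list medians lie between -0.022 and 0.081, and NS-DADm replicates 1 to 3 lie below the WT samples for Ppargc1b.

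The tissue label was checked against lists of cell type markers. Of 6 hepatocyte markers measured, all had WT means of 13.35 or more, with a median difference of 0.0073 and a difference of the list's mean of -0.018, opposite in sign. Of the 6, 5 were above 0 and Tat was at -0.20 (-0.36 to -0.033, adjusted p = 0.427). Tat stood at 13.39, 13.69, 13.66 and 13.75 in NS-DADm and at 13.80 to 13.84 in WT livers. Its NS-DADm samples lay below all WT samples, as in 3.83% of all genes. All 8 sinusoidal endothelial markers were below 0, with a median of -0.25 and none past the test, against 0.271% of all genes. At an unadjusted p under 0.05, 5 of the 8 were lower, against 5.6% of all genes. In 2 the groups did not overlap, and 3.83% of all genes were lower without overlap. The mean of the 8 markers lay at 9.14, 9.40, 9.39 and 9.75 in NS-DADm and at 9.57 to 9.75 in WT livers. In such bulk tissue, fewer cells of a type and less RNA per cell cannot be told apart. The 6 Kupffer markers had a median of 0.10, and their mean stood at 8.65, 8.99, 9.40 and 9.81 in NS-DADm and between 8.80 and 9.41 in WT livers, so NS-DADm samples lay on both sides of the WT range. The 6 stellate cell markers had a median of -0.12, with means of 8.72, 8.96, 9.06 and 9.48 in NS-DADm and 9.06 to 9.33 in WT livers. For both lists and the endothelial one replicate 1 was the lowest and replicate 4 the highest of the NS-DADm samples. The 5 neutrophil markers were all above 0, with a median of 0.18, and 2 were higher at an unadjusted p under 0.05, against 3.72% of all genes. All 5, and all lymphocyte and adipocyte markers measured, lay below the median level of all genes, 7.59. Their values may therefore be mostly background. Cholangiocyte (0.012), lymphocyte (0.061), skeletal muscle (-0.044) and adipocyte (-0.066) lists had medians nearer to 0, and the 1 erythroid marker measured, the heme synthesis gene Alas2, was at -0.51 (adjusted p = 0.0707). The part of cell composition in the values of the respiratory chain was not tested.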

How the data were processed

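Liver RNA of 4 NS-DADm and 4 WT samples was hybridised to 8 arrays. The deposited values, 28270 probe sets by 8 arrays with no value missing, were used as log2 intensities, a scale read from their range of 3.43 to 14.37. RMA and Partek are named in the submitters' processing notes; their order and versions were not given in the sources used here. Array medians ran from 7.39 to 7.50 and pairs of arrays correlated at 0.993 to 0.998. The number of arrays limits the precision. No batch was given.

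Names came from GEO's annotation of the array, which can be old. Of the probe sets 21780 named 1 gene, 1617 several and 4873 none. Each gene was read by its single-gene probe set of highest mean over all arrays. By Entrez Gene identifier 19852 of 19935 genes matched a RefSeq table of the GRCm38.p6 assembly, and applying the rule to the updated symbols changed no member.

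The test was limma's (version 3.58.1, R 4.3.3; lmFit and eBayes, two-sided, no trend), and p-values were adjusted by Benjamini-Hochberg across the 19935 genes, with calls made under 0.05. Confidence intervals came from that fit. Means over a complex were compared by their pooled SD over arrays, with no p. No low-value filter was applied. The limma fit was tested on simulated data, with noise drawn independently for each gene and so without variation shared by arrays.

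The members, lists, motifs and tests were chosen with earlier results of these data known. The genes named were, in each complex, the 3 with the highest mean level and the 2 largest differences in each direction among genes that reached the median level. Genes with an unadjusted p under 0.05, the isoform sets and all complex II subunits were also named, and of each other list its called genes or else its 2 largest differences. Ndufs1, Ndufv1 and the genes listed for wide intervals, low levels, the component and probe sets were chosen after their values were seen, as were the promoters shown. Alternatives were other filters, probe set rules, normalizations, variances, array weights, a replicate block and each array left out. Promoters came from RefSeq. Python 3.11.15, pandas 2.3.3 and matplotlib 3.10.9 were used.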

Additional observations from a re-analysis of the deposited data

Results flagged for a closer look

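In 100 sets of 4 samples, for 44 named genes, the 5 complex means and the mean of all members in each group, a sample stood far from the other 3 in 9 sets, where chance gives about 1 in 20. None of the complex means was among them. WT replicate 4 stood apart in 4 genes. It was low for Ndufa4l2 (6.83, the others 7.12 to 7.14), Sdhb (11.73, the others 11.78 to 11.79) and Cox8c (7.13, the others 7.47 to 7.51), and high for Uqcrb (12.88, the others 12.58 to 12.62). WT replicate 1 was high for Cox7a2l (9.91, the others 9.62 to 9.65) and Atp5g3 (12.63, the others 12.57), and WT replicate 3 was low for Sdha (12.30, the others 12.39 to 12.41). In the NS-DADm group replicate 4 was low for Cox6a2 (7.96, the others 8.18 to 8.19) and replicate 3 was high for Cox7b2 (5.51, the others 5.36 to 5.37).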

How the results depend on the processing

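No gene of the respiratory chain was called under any of the 18 alternatives, including each array left out. The count of intervals within 0.5 of 0 stayed at 88 or 89 of 89 with every array left out in turn, and was 88 with array weights or the replicate block. The mean difference of complex I ran from -0.035 to -0.0017 over its 18 alternatives, complex II from -0.045 to -0.017, complex III from -0.026 to 0.011, complex IV from -0.023 to 0.0084 and complex V from -0.054 to -0.026. Each moved by less than 1 SD between arrays. Of 44 named genes 29 kept the sign of their difference under every alternative that measured them, and 15, none of them called, changed it at least once. The count of all genes called, 54, was 109 with array weights, 105 with the replicate block, 109 at an adjusted p under 0.1 and 13 to 126 with single arrays left out; the cause was not tested. Same-numbered samples of the groups correlated at 0.15, 0.05, -0.10 and 0.25 in their deviations from group means. The labels give them only a shared number, and whether they were paired was not tested. Under the replicate block 2 chain genes reached an unadjusted p under 0.05, against 10.2% of all genes, and with array weights 10, against 12.5%. Low intensities limit the isoforms of other tissues, and whether the brightest probe sets were compressed near the top of the scale was not tested.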
